A study of Mus musculus with 6 samples.

Results

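A set of 8 genes that mark the nephron and its lineage were followed through all 6 mouse RNA-seq libraries of the series: the transcription factor genes *Pax2*, *Pax8*, *Lhx1* and *Emx2*, and the segment marker genes *Cdh16*, *Aqp1*, *Umod* and *Slc12a1*. They were chosen by symbol, and all 8 were found among the 30281 gene symbols of the files. Each library was a different cell line or treatment. Mouse embryonic fibroblasts (MEFs) were *Tsc2*+/+ p53-/- or *Tsc2*-/- p53-/-, with 1 untreated library each. MKOC and TJ are lines of kidney epithelium, labelled Tsc2-null and the latter also tumor-derived, and each was sequenced untreated and after 18 hours in 100 nM rapamycin, an inhibitor of mTORC1, without serum. Libraries held between 22887020 and 37505004 estimated counts. There was 1 library per line and treatment, so the lines stand in for replicates. For kidney lines against MEFs, p-values measure the spread between the lines of a group. The rapamycin and the TJ against MKOC tests come from a fit with both line and treatment as terms. Their p-values rest on how far MKOC and TJ differ in their change under rapamycin, and not on the spread between lines.

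PAX2 and PAX8 are paired-domain transcription factors that act together in the intermediate mesoderm and in the kidney epithelium that forms from it, LHX1 is a LIM homeodomain factor of the early nephron, and EMX2 is a homeodomain factor needed by the ureteric bud epithelium. The other genes mark finished tubule: *Cdh16* encodes a cadherin of the tubular epithelium, *Aqp1* a water channel of the proximal tubule and thin limb, *Slc12a1* the sodium, potassium and chloride cotransporter of the thick ascending limb, and *Umod* uromodulin, the main secreted protein of that limb. TSC2 restrains mTORC1, and the kidney tubule is one of the tissues in which its loss gives tumors.

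The *Pax2* transcripts of the files differ, among other parts, in an exon that is shown here, and 2 upstream stretches are shown to place an abundant and an undetected gene side by side. The *Pax2* exon is exon 6 of 11 in transcript ENSMUST00000004340, at chr19:44796628-44796696 on the + strand of GRCm38. It has 69 bases, or 23 codons, and is coding. The stretches run from base 250 to base 51 before the RefSeq start site (GRCm38.p6), at chr2:24475650-24475849 for *Pax8* and chr7:119479313-119479512 for *Umod*, both on the - strand. Capitals mark CCAAT in both.
Pax2 exon: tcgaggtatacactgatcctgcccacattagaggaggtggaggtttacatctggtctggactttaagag
Pax8 upstream: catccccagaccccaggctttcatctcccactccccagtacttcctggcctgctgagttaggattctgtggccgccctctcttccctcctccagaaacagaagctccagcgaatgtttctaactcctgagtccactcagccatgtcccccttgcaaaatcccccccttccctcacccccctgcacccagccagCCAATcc
Umod upstream: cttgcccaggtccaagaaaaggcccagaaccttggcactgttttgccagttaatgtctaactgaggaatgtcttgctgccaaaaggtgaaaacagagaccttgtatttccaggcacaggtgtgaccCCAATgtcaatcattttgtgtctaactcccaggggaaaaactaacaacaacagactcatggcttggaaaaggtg

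The genes lie on GRCm38 at chr19:44756045-44837871 (*Pax2*), chr2:24420560-24475599 (*Pax8*), chr11:84518284-84525535 (*Lhx1*), chr19:59458372-59465357 (*Emx2*), chr8:104601911-104624396 (*Cdh16*), chr6:55336432-55348555 (*Aqp1*), chr7:119462711-119479282 (*Umod*) and chr2:125152505-125230002 (*Slc12a1*), *Pax8*, *Lhx1*, *Cdh16* and *Umod* on the - strand. Promoter windows of 300 bases, 250 before and 50 after the start, were matched by symbol for 7 of the 8 genes. *Lhx1* held 31 CpG, *Emx2* 26 and the 3 windows of *Pax2* 7, 23 and 30, while *Pax8* held 7, *Aqp1* 8, *Slc12a1* 5 and *Umod* 0. The median over all 32851 windows was 7, and 5.43% of windows held none. The letters CCAAT, read on both strands, were found in 37.4% of all windows and in those of *Pax8*, *Lhx1*, *Emx2*, *Umod* and *Slc12a1*. A match of letters is a description of the window and does not show that a factor binds there.

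The labels were first set against *Tsc2* RNA. *Tsc2* was at 22.6 TPM (a level scaled to transcript length and to the library's total) in the *Tsc2*+/+ MEFs and 10.5 TPM in the *Tsc2*-/- MEFs, and in the kidney lines it was at 49.1 TPM in MKOC and 44.0 TPM in TJ untreated and at 19.5 TPM and 19.1 TPM under rapamycin. *Trp53* RNA was at 26.3 TPM and 28.5 TPM in the MEFs labelled p53-/-. The kidney libraries labelled Tsc2-null held more *Tsc2* RNA than the *Tsc2*+/+ library when untreated. Which exons the deleted alleles lack is not given in the sources used here, and summed gene levels do not check the labels without it.

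**Figure D1:**
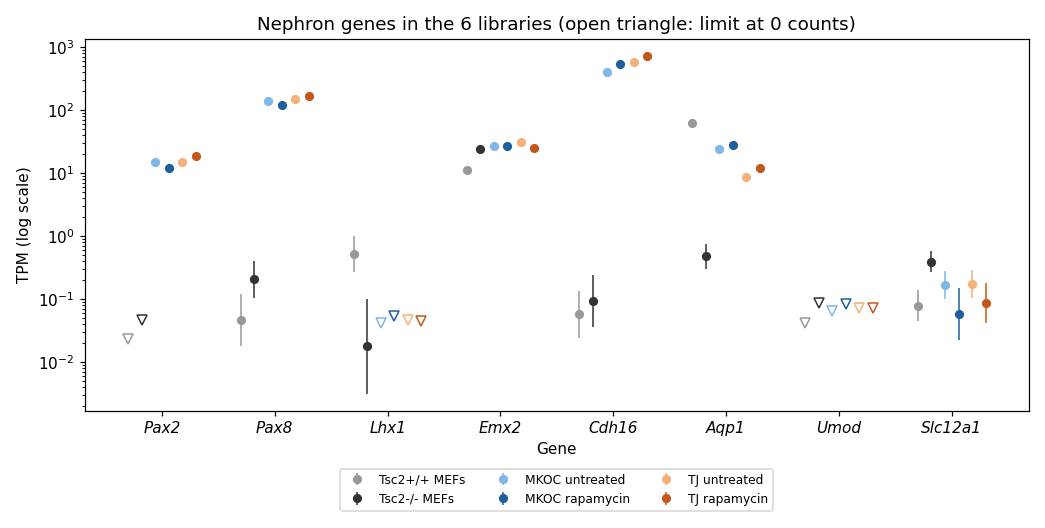
TPM of the 8 genes (log axis) in each of the 6 libraries. Bars are 95% Wilson intervals for counting error. Open triangles give the level that 3 counts on the gene's longest transcript would have where a gene had 0 counts. *Pax2*, *Pax8* and *Cdh16* separate the 4 kidney libraries from the MEFs, and *Umod* has no counts anywhere.

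*Pax2*, *Pax8* and *Cdh16* RNA was present in every kidney library and at or near 0 in the MEFs. *Pax8* was at 141 TPM in MKOC untreated, 121 TPM in MKOC rapamycin, 147 TPM in TJ untreated and 164 TPM in TJ rapamycin, against 0.0466 TPM in the *Tsc2*+/+ MEFs (4 counts) and 0.203 TPM in the *Tsc2*-/- MEFs (8 counts). *Cdh16* was at 395 TPM, 537 TPM, 578 TPM and 720 TPM in the same kidney order, and at 0.0564 TPM (5 counts) and 0.0916 TPM (4 counts) in the MEFs. In each of these kidney libraries *Cdh16* had the highest level of the 8 genes and *Pax8* the next. *Emx2* and *Aqp1* were neighbours in MKOC cells with overlapping counting intervals, in both treatments. *Pax2* was lower, at 15.0 TPM, 12.2 TPM, 15.1 TPM and 18.7 TPM, with 0 counts in both MEF libraries. On its longest transcript, of 4358 bases, 3 counts would be 0.0228 TPM in the *Tsc2*+/+ and 0.0464 TPM in the *Tsc2*-/- MEFs. On a shorter transcript they would be more.

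The question of the first test was which of these genes separate untreated kidney lines from MEFs (2 lines against 2, edgeR quasi-likelihood test, Benjamini-Hochberg adjusted over 13473 genes). Over all genes, 9.93% passed at an adjusted p of 0.05, 4.74% being higher and 5.20% lower in the kidney lines. Of the 8 genes, 6 passed the filter on low counts and 3 passed the test, all higher in the kidney lines, while *Lhx1* and *Umod* were not tested. The 3 had 0 to 8 counts in the MEF libraries and passed the filter through the kidney libraries. A call for them could only be higher in the kidney lines, so the direction is not a separate result. *Cdh16* was higher by a log2 fold change of 12.58 ± 0.44 (SE, edgeR adjusted p = 0.00694) and *Pax8* by 9.90 ± 0.57 (edgeR adjusted p = 0.0127). *Pax2* also passed (edgeR adjusted p = 0.0161), with 0 counts in both MEF libraries. The floor was taken as 3 counts per MEF library on its longest transcript. Its level in untreated MKOC cells was 657-fold that floor in the *Tsc2*+/+ MEFs and 323-fold that floor in the *Tsc2*-/- MEFs. A floor set on a shorter transcript would give lower folds. With either kidney line left out, which leaves an arm of 1 library whose spread is taken from the MEFs, no gene of the whole table passed, although the log2 fold changes stayed as large, at 9.91 and 9.90 for *Pax8* and 12.84 and 12.32 for *Cdh16*. The edgeR adjusted p was then 0.220 for *Pax2* and 0.131 for *Pax8* and *Cdh16* without MKOC, and 0.229, 0.133 and 0.133 without TJ. With either MEF library left out, the spread came from the 2 kidney lines alone, and 7924 genes passed without the *Tsc2*-/- and 6886 without the *Tsc2*+/+ MEFs, against 1338.

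*Emx2* was the only transcription factor of the set with clear RNA in both MEF libraries. Its level was 11.2 TPM in the *Tsc2*+/+ and 23.6 TPM in the *Tsc2*-/- MEFs, 27.3 TPM and 26.4 TPM in MKOC untreated and rapamycin, and 30.9 TPM and 24.7 TPM in TJ untreated and rapamycin. The untreated kidney libraries were above both MEF libraries, though the *Tsc2*-/- MEFs came close to them. The log2 fold change was 0.51 ± 0.33 (SE, edgeR adjusted p = 0.347), while against 1 MEF library, with the spread of the kidney lines alone, it was 0.90 without the *Tsc2*-/- MEFs (edgeR adjusted p = 0.00847) and 0.24 without the *Tsc2*+/+ MEFs (edgeR adjusted p = 0.312).

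*Aqp1* did not separate kidney cells from MEFs. It was at 61.3 TPM in the *Tsc2*+/+ MEFs and 0.475 TPM in the *Tsc2*-/- MEFs, and at 24.3 TPM, 28.0 TPM, 8.74 TPM and 12.1 TPM in MKOC and then TJ cells, each without and then with rapamycin. The kidney libraries sat between the 2 MEF libraries. The log2 fold change of kidney lines against MEFs was -1.25 ± 2.03 (SE, edgeR adjusted p = 0.705), and its sign depended on the MEF library used. With the spread of the kidney lines alone, without the *Tsc2*-/- MEFs it was -2.23 (edgeR adjusted p = 0.00794), and without the *Tsc2*+/+ MEFs 5.28 (edgeR adjusted p = 0.00261).

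Both thick limb markers and the early nephron factor *Lhx1* had few or no counts in the kidney lines. *Umod* had 0 counts in all 6 libraries, which allows at most 0.0417 to 0.0846 TPM depending on the library. *Lhx1* had 0 counts in the 4 kidney libraries, and about 9 counts (0.515 TPM) in the *Tsc2*+/+ and 1 count in the *Tsc2*-/- MEFs. In the kidney libraries 3 counts on its longest transcript would be 0.0407 to 0.0525 TPM, and more on a shorter one. In the *Tsc2*+/+ MEFs 2.41 counts on its transcript of 382 bases made 0.413 TPM. *Slc12a1* was between 0.0575 TPM (4 counts) and 0.174 TPM (14 counts) in the kidney libraries, against 0.0782 TPM (11 counts) in the *Tsc2*+/+ and 0.391 TPM (27 counts) in the *Tsc2*-/- MEFs, so that the untreated kidney libraries sat between the MEF libraries, and did not pass the test (log2 fold change -0.40 ± 0.81 SE, edgeR adjusted p = 0.761).

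By counts, the main transcript of *Pax2*, *Pax8* and *Emx2* was the same in each kidney library. The *Pax2* transcript with the exon printed above took 53.2% to 64.5% of *Pax2* counts in the 4 kidney libraries and ENSMUST00000174490, which lacks it, 31.5% to 36.9%. For *Pax8*, ENSMUST00000028355 took 95.4% to 96.7% of counts in those libraries. ENSMUST00000062216 took 54.3% to 66.2% of *Emx2* counts across all 6 libraries. By share of *Emx2* TPM, which corrects for transcript length, it took 38.1% and 35.3% in MKOC untreated and rapamycin and 27.5% and 31.9% in TJ, where ENSMUST00000174353 took more, at 39.7% and 37.4%. *Pax2*, *Pax8*, *Emx2*, *Umod* and *Slc12a1* overlap a gene on the other strand in GENCODE M21, and whether the counting used strand is not given in the sources used here, so reads of these partners cannot be told apart.

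**Figure D2:**
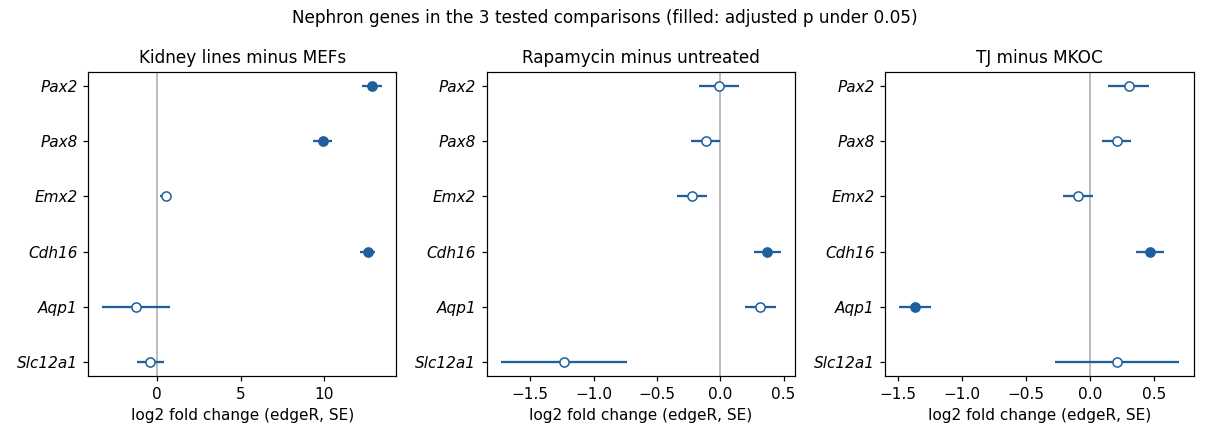
Fitted log2 fold change with its SE for the 6 genes tested, in the comparisons of untreated kidney lines with MEFs, rapamycin with untreated and TJ with MKOC. Filled points passed an edgeR adjusted p of 0.05. The kidney comparison has 3 filled points on the right, rapamycin has *Cdh16* and TJ against MKOC has *Cdh16* and *Aqp1*.

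*Cdh16* was higher under rapamycin in both kidney lines. The test compared rapamycin with untreated within line over 12952 genes, of which 34.9% passed, 17.5% higher and 17.4% lower. Of the 8 genes 6 were tested and 1 passed: *Cdh16* rose from 395 TPM to 537 TPM in MKOC and from 578 TPM to 720 TPM in TJ, a log2 fold change of 0.37 ± 0.11 (SE, edgeR adjusted p = 0.0226). The 1 call of 6 stands beside the 34.9% of all genes. *Aqp1* was also higher under rapamycin in both lines without passing (0.32 ± 0.12 SE, edgeR adjusted p = 0.0710). Without the line as a block *Cdh16* no longer passed (log2 fold change 0.36, edgeR adjusted p = 0.357), and nor did it with limma on log2 TPM with 1 added (0.38, limma adjusted p = 0.0699), at folds about as large.

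None of the transcription factors passed the test under rapamycin. *Pax2* was lower in MKOC (15.0 to 12.2 TPM) and higher in TJ (15.1 to 18.7 TPM), with a fitted log2 fold change of -0.01 ± 0.16 (SE, edgeR adjusted p = 0.975). *Pax8* likewise went from 141 to 121 TPM in MKOC and from 147 to 164 TPM in TJ (-0.11 ± 0.11 SE, edgeR adjusted p = 0.465). *Emx2* was lower under rapamycin in both lines, by little in MKOC, and did not pass (-0.22 ± 0.12 SE, edgeR adjusted p = 0.173). *Slc12a1* was lower in both lines on 4 to 15 counts (edgeR adjusted p = 0.0811).

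**Figure D3:**
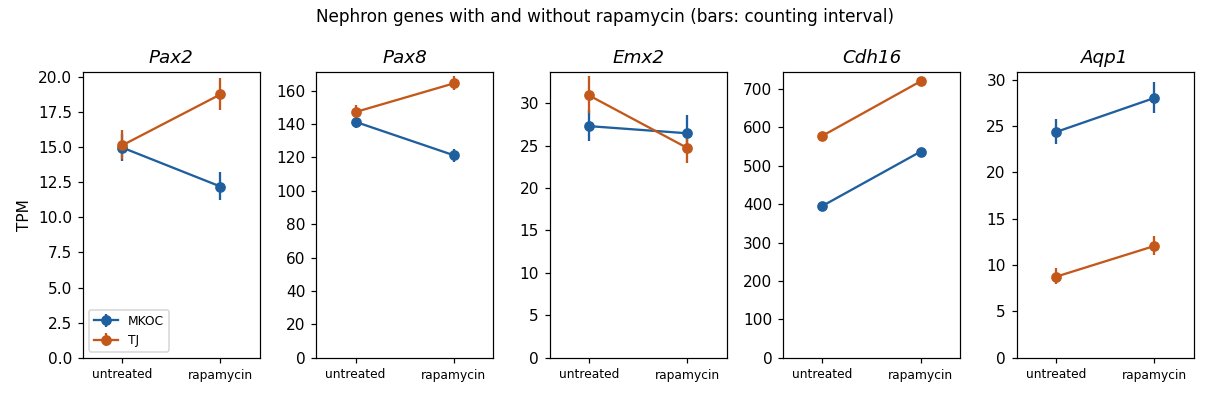
TPM of 5 nephron genes in MKOC (blue) and TJ (orange) cells, untreated and under rapamycin, from axes that start at 0. Bars are 95% Wilson intervals for counting error only. *Cdh16* and *Aqp1* slope upward in both lines, and *Pax2* and *Pax8* slope in opposite directions.

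TJ cells held less *Aqp1* and more *Cdh16* than MKOC cells. In the same fit, TJ against MKOC with treatment as a covariate, 8.79% of 12952 genes passed, 5.47% higher and 3.32% lower in TJ. Of the 6 nephron genes tested, 2 passed. *Aqp1* was lower in TJ in both treatments, by a log2 fold change of -1.36 ± 0.12 (SE, edgeR adjusted p = 0.000162), and *Cdh16* was higher by 0.47 ± 0.11 (SE, edgeR adjusted p = 0.0253). With limma at 1 TPM added *Cdh16* did not pass (0.48, limma adjusted p = 0.104), and at 0.1 TPM added neither did *Aqp1* (-1.34, limma adjusted p = 0.0559). *Pax2* (0.30 ± 0.16 SE, edgeR adjusted p = 0.302) and *Pax8* (0.21 ± 0.11 SE, edgeR adjusted p = 0.324) did not pass. The libraries of a line are the same line under 2 treatments, so this difference is between these 2 lines, and without the treatment term no gene passed at an adjusted p of 0.05 in edgeR, 702 having an unadjusted p under 0.05.

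In the MEFs, with 1 library per genotype and no replicate check, 30.4% of 12771 genes with at least 1 TPM in either library differed by at least 2-fold with 1 TPM added, 25.2% higher and 5.18% lower in the *Tsc2*-/- library. Of the nephron genes, only *Aqp1* and *Emx2* had at least 1 TPM in either MEF library, and both passed this size. *Aqp1* was 42.2-fold lower in the *Tsc2*-/- MEFs on that scale, 18 counts against 4710, and 9 genes of the 12771 fell as far, *Aqp1* included. *Emx2* was 2.02-fold higher, but the median gene with at least 10 TPM in both libraries was itself 1.31-fold higher, and with the median ratio set to 1 the log2 fold change of *Emx2* was 0.64. Transcripts shorter than 300 bases took 20.9% of TPM in the *Tsc2*+/+ library and between 4.09% and 7.998% in the others, and without them the log2 fold change of *Emx2* was 0.80, under 2-fold.

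**Figure D4:**
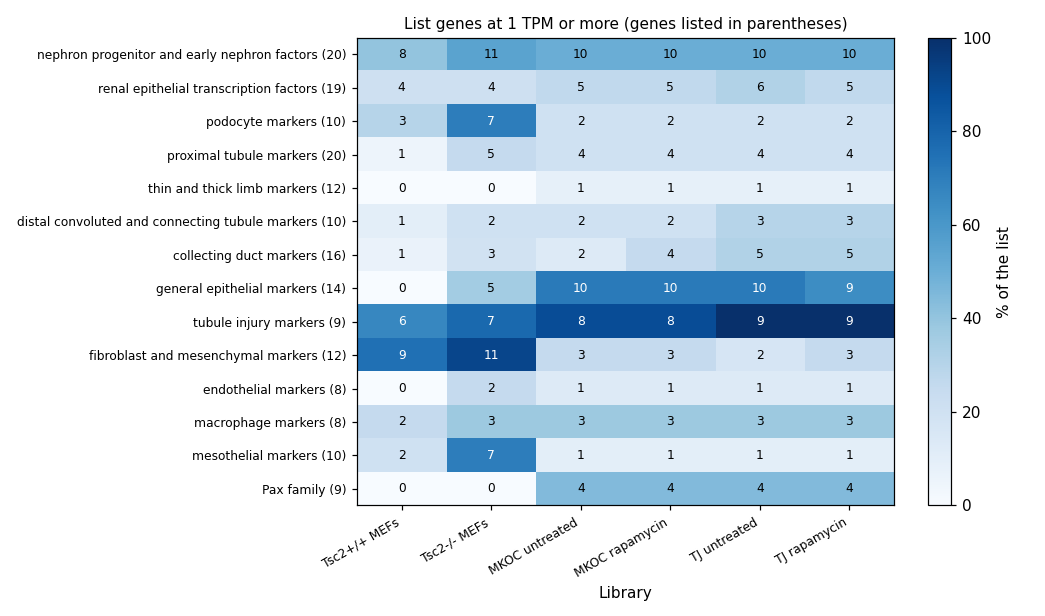
Number of genes of each marker list at 1 TPM or more in each library, shaded by the share of the list. Of 14 general epithelial markers 9 to 10 are detected in the kidney libraries, 5 in the *Tsc2*-/- and 0 in the *Tsc2*+/+ MEFs, of 12 fibroblast markers 2 to 3 in the kidney libraries and 9 to 11 in the MEFs, and of 12 limb markers at most 1 in any library.

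Other genes of the kidney lineage were read from lists, beside the 4.74% of all genes that were higher and the 5.20% that were lower in the untreated kidney lines. Among renal epithelial transcription factors, 5 of the 8 tested were higher in the kidney lines and none lower, with a median log2 fold change of 4.55 against -0.04 over all genes tested. The filter dropped 11 of the 19 listed, among them genes high in the *Tsc2*+/+ MEFs alone. *Irx2* was at 33.6 TPM there, *Tfap2b* at 6.25 TPM and *Irx1* at 3.57 TPM, all at or near 0 in the kidney libraries. The count of lower genes and the median do not cover them. *Tfap2a*, an AP-2 factor, was among those that rose (log2 fold change 6.65, edgeR adjusted p = 0.0141), as was *Sim1*, at 0.52 to 1.34 TPM in the kidney libraries and about 1 count in each MEF library. Of the 20 progenitor and early nephron factors 7 were not tested, and 4 of the 13 tested were higher, among them *Sall1* (13.9 to 20.8 TPM against at most 0.03 TPM) and *Hoxa11* (12.6 to 18.6 TPM), and 1, *Osr1*, was lower (log2 fold change -5.99 ± 0.53 SE, edgeR adjusted p = 0.0169). Of the 9 Pax genes 4 were tested and 3 were higher, *Pax9* besides the 2 members, at 2.29 to 3.61 TPM.

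Each segment list gave 1 call, again beside 4.74% of all genes higher. Among proximal tubule markers 1 of 6 tested was higher (*Ggt1*, a glutamyltransferase of the brush border, log2 fold change 5.37), among limb markers 1 of 2 (*Bsnd*, barttin, a chloride channel subunit, at 8.21 to 38.04 TPM), among distal and connecting tubule markers 1 of 2 (*Trpm6*, a magnesium channel, 5.58) and among collecting duct markers 1 of 6 (*Slc26a4*, pendrin, 4.52), with none lower. No collecting duct marker was called with limma at 1 TPM added or without the filter on low counts. Genes of these lists dropped by the filter were 14 of 20, 10 of 12, 8 of 10 and 10 of 16. Among them was *Slc8a1* of the distal list, at 4.14 TPM (173 counts) in the *Tsc2*-/- MEFs and 0 counts in every kidney library. It could not be counted as lower. The highest collecting duct gene, *Krt7*, a simple-epithelium keratin, was at 166 to 457 TPM, and the highest proximal gene, *Mme*, at 16.7 to 49.1 TPM, though at 41.2 TPM in the *Tsc2*-/- MEFs as well.

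The calls among general epithelial markers were all higher and those among fibroblast markers all lower in the kidney lines. Of 11 epithelial genes tested 5 were higher and none lower (median log2 fold change 6.41), with *Krt8* (log2 fold change 11.16), *Cdh1*, which encodes E-cadherin (9.60), and *Esrp1*, a splicing regulator (11.9 to 16.3 TPM against 1 count in each MEF library), rising most, while *Epcam* and *Cldn7* were at or near 0 in the kidney libraries. *Krt19* did not pass, at 55.6 TPM in the *Tsc2*-/- MEFs against at most 0.80 TPM in the kidney libraries, and *Krt18* was at 20.6 TPM in the *Tsc2*-/- MEFs. Of 10 fibroblast genes tested 6 were lower and none higher (median -9.50), with *Col3a1* (-13.05), *Col1a2* (-12.77) and *Col1a1* (-11.78), collagens, falling most, while *Vim* was at 3609 to 7523 TPM in the kidney lines. Of the injury markers 2 of 8 were higher (*Lcn2*, 5.26, and *Krt20*, at 4.38 to 5.72 TPM against 0 counts in both MEF libraries) and *Vcam1* was lower (-5.54). Podocyte markers gave 1 of 4 lower (*Kirrel*), endothelial markers 1 of 3 higher (*Cdh5*, at 1.01 to 3.30 TPM, not called with limma at 1 TPM added) and macrophage and mesothelial markers none of 3 and 4. The macrophage marker of highest level was *Csf1r*, at 11.3 to 30.3 TPM in the kidney libraries, and 3 of the 8 genes of that list reached 1 TPM in each of them. The other two, chosen after the values were seen, were *Cd14* at 6.76 to 19.4 TPM and *Cd68* at 4.48 to 8.01 TPM, while *Ptprc* and *Adgre1* were at most at 0.0423 and 0.0169 TPM and *C1qa* had 0 counts. In bulk RNA, fewer cells of a type and less RNA per cell cannot be told apart. In the *Tsc2*-/- MEFs the summed level of mesothelial markers was 534 TPM, against 5.49 TPM in the *Tsc2*+/+ MEFs and 71.0 to 152 TPM in the kidney libraries, where *Msln* alone of the 10 genes reached 1 TPM, and their part in the comparison of nephron genes with MEFs was not tested.

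Rapamycin left the Pax family without a call (0 of 4 tested) and raised 6 of 10 epithelial markers, lowering 1 (*Prom1*), with *Krt8* (log2 fold change 0.79), *Krt18* (0.78) and *Cldn3* (0.64) raised most. The 7 epithelial calls became 3 without the line as a block and 1 with limma at 0.1 TPM added. Of the injury markers 4 of 9 rose, *Havcr1* (log2 fold change 1.48), *Vcam1* (1.31) and *Anxa1* (0.84) most, and 1 was called without the block. Of the 6 proximal markers tested *Mme* rose (1.46) and *Slc4a4* fell (-0.58), and 1 was called without the block, with DESeq2 or with limma at 0.1 TPM added. TJ cells had more of 6 of 9 injury markers than MKOC cells, *Havcr1* (4.11), *Lcn2* (1.88) and *Clu* (1.01) most, and more of 4 of 7 collecting duct markers, with none lower. The genes higher in TJ were led in that list by *Avpr2*, the vasopressin receptor (3.25), *Slc4a1* (1.45) and *Slc26a4* (1.42). Under rapamycin the other lists gave, of the genes tested, 4 of 12 progenitor factors higher and 1 lower, 1 of 8 renal factors lower (*Sim1*), the podocyte marker *Synpo* higher, 1 of 2 distal (*Trpm6*), 2 of 7 collecting duct (*Scnn1a* and *Krt7*), 3 of 9 fibroblast, 2 of 3 macrophage and 1 of 2 mesothelial markers higher, and no call for limb or endothelial markers. Without the line as a block the progenitor calls went from 5 to 1, as they did with DESeq2, and the renal, fibroblast, macrophage and mesothelial lists had 0. Between lines, TJ was higher for 1 of 12 progenitor factors (*Wnt4*), 3 of 8 renal factors (*Elf3*, *Tfcp2l1* and *Tfap2a*), 1 of 2 podocyte, 1 of 6 proximal (*Slc5a1*), 1 of 2 limb (*Bsnd*), 1 of 2 distal, 1 of 9 fibroblast and 2 of 3 macrophage markers, and lower for 1 of 10 epithelial, 2 of 9 fibroblast, 1 of 3 endothelial and 1 of 2 mesothelial markers, with no call in the Pax family. With DESeq2 the podocyte, proximal, limb, distal, collecting duct and mesothelial lists had no call between the lines, and without the treatment term no list had one. The median log2 fold change over all genes tested was 0.02 under rapamycin and -0.01 for TJ against MKOC; that of the epithelial list was 0.36 and 0.05, and that of the injury list 0.39 and 0.64. These counts stand beside the 34.9% and 8.79% of all genes.

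The genes most like each member were sought by Pearson correlation of log2 TPM with 1 added over the 6 libraries, among 11435 genes, as a description with no test. *Pax2* was most like *Dok7*, *Smagp* and *Hoxb13*, *Pax8* most like *Mal*, *Cdh1* and *Adap1*, and *Cdh16* was much like *Lad1* and *Ocln*, each with r above 0.999. The points share the gap between kidney libraries and MEFs, and 124, 157 and 151 genes had r above 0.99 with these 3. *Emx2* was most like *Tmpo*, *Ccnb1* and *Cdk1* (r of 0.998, 0.996 and 0.996), and *Aqp1* most like *Rps20*, *Gm10197* and *Atr* (0.979, 0.969 and 0.967). Among the members, *Pax2*, *Pax8* and *Cdh16* had r of 0.997 to 0.999 with each other, while *Aqp1* had r of -0.44 with *Emx2*.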

How the data were processed

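Total RNA of the 6 libraries had been sequenced as stranded poly(A) RNA-seq. The authors trimmed reads with Trimmomatic and quantified transcripts with Kallisto, and deposited estimated counts and TPM per transcript. The methods name a human reference, whereas the deposited identifiers are those of mouse. The authors also deposited a fold change, a ratio of TPM in MEFs, from which gene symbols alone were taken. The members and gene lists were chosen with earlier results of these data known.

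Estimated counts were summed per symbol and rounded, filtered with filterByExpr, scaled by TMM and tested in edgeR 4.0.16 (R 4.3.3, limma 3.58.1, DESeq2 1.42.0), which was also tested on simulated data. TPM was summed per symbol. Intervals are 95% Wilson intervals and floors are 3 counts; both cover counting error only. Positions come from GENCODE M21 and sequences from GENCODE and RefSeq. Transcripts with no symbol held 0.372% to 0.468% of counts and were left out. The labels pair the kidney libraries by cell line, and libraries of a line deviated together (correlation 0.562 over 12952 genes). Named genes were all members, the 3 list genes that rose and fell most per comparison, the 2 of highest level per list, and the 3 most alike; 2 genes that this rule names are not reported here. Other normalizations, filters, tools, pseudocounts and left-out libraries were tried.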

Additional observations from a re-analysis of the deposited data

Results flagged for a closer look

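*Pax2* and *Pax8* moved in opposite directions under rapamycin in the 2 kidney lines. On the log2 scale of TPM with 1 added, *Pax2* changed by -0.28 in MKOC and 0.29 in TJ, and *Pax8* by -0.22 in MKOC and 0.16 in TJ. With 1 library per line and treatment, the difference between the lines was not tested.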

How the results depend on the processing

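*Pax2*, *Pax8* and *Cdh16* kept their call against MEFs in every alternative that kept both kidney lines; the number of members called was 0 to 5 when 1 library was left out, and the number of genes 0 to 7924, against 1338 (3969 with DESeq2). The log2 fold change of *Aqp1* turned to 0.71 and 1.31 with limma at 1 and 0.1 TPM added, and ranged from -2.23 to 5.28 without 1 library, that of *Slc12a1* from -1.03 to 0.77. Under rapamycin no member was called with limma at either pseudocount, nor without the replicate block, where 1275 genes passed against 4526; 1156 passed with limma at 0.1 TPM added. *Pax2* was then at 0.0088 (limma, 1 TPM added), 0.0074 (limma, 0.1 TPM added) and 0.022 (no block) in place of -0.0082, and each line alone gave values with no test. Between TJ and MKOC, 1 member was called with limma at 1 TPM added, 0 at 0.1 TPM added and 0 without covariate, and the genes called were 418, 119 and 0, with 622 in DESeq2 and 1753 without filter, against 1139; *Emx2* turned to 0.0399 and 0.0410 in the limma fits. In the MEFs 5 members passed 2-fold with 0.1 TPM added and 1 with 5 TPM added, with CPM, with the median ratio set to 1, or without short transcripts. Of 294 counts over lists, 129 moved by over 1.5 times. The causes were not tested.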
